A study of Mus musculus with 3 samples.

Results

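The 9 genes described here make, load or switch on the MHC class II molecules: H2-Aa, H2-Ab1, H2-Eb1, Cd74, Ciita, H2-DMa, H2-DMb1, H2-DMb2 and H2-Oa. They were chosen by name as the class II presentation genes, and all 9 were found among the 31053 genes of the RNA table. Their transcripts were followed over the 13 clusters that the authors deposited and over 4 brains. Single-cell values were examined in clusters 2, 8 and 12, where most of the transcripts lay.

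Cells were profiled by CITE-seq, which reads a cell's RNA together with DNA tags that mark antibodies bound to its surface. Female C57BL/6 mice, 2 to 3 months old, either carried no tumour (naive) or had established brain metastases. The metastases had been started by injecting E0771 cells, a mouse mammary carcinoma line of the same strain, into the carotid artery about 2 weeks earlier. After PBS perfusion and papain digestion, a Percoll gradient enriched each suspension for immune cells, so the share of a cell type in the suspension is not its share in the brain. Each brain received its own hashing antibody before pooling. The deposited tables hold 4 hashing antibodies, 2 for naive and 2 for metastasis brains, although the design text speaks of 6 pooled brains. Labels name 1 brain hemisphere as the source.

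MHC class II molecules display peptides from proteins taken up by a cell to CD4 T cells. H2-Aa and H2-Ab1 encode the alpha and beta chains of I-A, and H2-Eb1 the beta chain of I-E, which C57BL/6 mice do not display because the I-E alpha gene is defective. Cd74, the invariant chain, guards the empty groove, and Ciita is the coactivator that switches the class II promoters on. H2-DMa pairs with H2-DMb1 or H2-DMb2 to form H2-DM, which exchanges peptides in the groove, and H2-Oa is the alpha chain of H2-O, an inhibitor of H2-DM. In the brain, dendritic cells, B cells and macrophages of the borders carry class II, whereas resting microglia carry little.

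Class II genes are known for a shared promoter layout, in which an X box stands a fixed distance before a Y box, and these stretches are shown because the genes were followed as 1 group. RefSeq promoter windows of GRCm38.p6 run from 250 bases before to 50 bases after a start site. They were used for 6 of the 9 genes, all on chromosome 17. The windows were searched on both strands for the core CCNNGNNAC followed on the same strand, 30 to 45 bases later, by ATTGG, and for CTGATTGG, which itself ends in ATTGG. The stretches below run 5′ to 3′ along the gene, with the matched letters in capitals.
H2-DMb1: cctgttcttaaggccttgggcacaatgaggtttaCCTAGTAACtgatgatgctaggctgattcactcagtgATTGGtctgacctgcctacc
H2-Oa: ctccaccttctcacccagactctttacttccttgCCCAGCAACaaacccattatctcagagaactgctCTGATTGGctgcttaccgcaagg
H2-Aa: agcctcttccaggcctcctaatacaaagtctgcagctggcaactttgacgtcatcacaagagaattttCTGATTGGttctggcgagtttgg
H2-Eb1: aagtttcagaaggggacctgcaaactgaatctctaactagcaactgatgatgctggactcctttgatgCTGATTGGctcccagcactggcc
The stretches lie at chr17:34153059-34153149 (plus strand) for H2-DMb1 and at chr17:34092265-34092355 (plus strand) for H2-Oa. Those of H2-Aa and H2-Eb1 lie at chr17:34287852-34287942 (minus strand) and chr17:34305737-34305827 (plus strand).

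H2-DMb1 and H2-Oa held the core, with ATTGG starting 37 bases after the start of the core. A match to the core with ATTGG was found in 0.822% of the 32851 promoter windows searched. CTGATTGG stood in the windows of H2-Aa, H2-Eb1 and H2-Oa, and in 4.10% of the windows searched. Either match was present for 4 of the 6 genes and in 4.79% of the windows searched. The windows of H2-DMa and H2-DMb2 held neither. A match describes the letters only, and its absence says only that these letters are not in the window. No promoter result is given for H2-Ab1, Cd74 and Ciita. For the members, any window on chromosome 18, where Cd74 lies, was left out. In the same build, the 7 genes with an H2 name lie on chromosome 17, from H2-Oa (34092379 to 34095234) to H2-Eb1 (34305867 to 34316674), and Ciita lies on chromosome 16 (10480014 to 10531064).

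The tables held 12421 cells, none with a repeated barcode, with 572 and 315 cells in naive brains 1 and 2 and 5360 and 6174 cells in metastasis brains 1 and 2. Median depth was 1394 and 1230 UMIs (unique RNA molecules) per cell in the naive brains and 7294 and 7708 in the metastasis brains. Clusters are called by their deposited number. Cluster 2 was monocyte-like, with 11 of 11 monocyte markers higher than in the other clusters and Ms4a7, Wfdc17 and Lyz2 leading. Cluster 8 was mixed, with Klrd1, Gzma, Ccr7, H2-Aa, H2-Eb1 and H2-Ab1 among its own 10 leading genes. Higher there were 6 of 10 T cell, 2 of 7 NK cell and 2 of 8 B cell markers. So were 4 of 11 monocyte and 2 of 10 conventional dendritic markers. Cluster 12 was led by both neutrophil genes (S100a9, Camp, S100a8) and microglia genes (Tmem119, P2ry12), so it is given no single cell type name. Higher there were 11 of 11 microglia and 7 of 11 neutrophil markers. Most of its cells held mostly microglia markers, 54 of 60 and 26 of 33 in naive and 20 of 26 and 12 of 15 in metastasis brains. Clusters 0, 1, 3 and 4, the largest besides cluster 2, held almost only cells of the metastasis brains. Naive brain 1 still had 37, 13, 10 and 9 cells there and naive brain 2 had 3, 11, 4 and 1. Krt8, a carcinoma marker, ran from 327.2 to 628.6 CPM in these naive cells, although naive mice carried no tumour. Whether the hashing labels of such cells are right was not tested, and this limit holds for all naive values. The clusters were made from the same RNA counts, so levels in a cluster against the rest are descriptions.

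The level of the 4 chain genes together (H2-Aa, H2-Ab1, H2-Eb1 and Cd74, called class II chains below) was highest in clusters 8, 2 and 12, in that order of the naive means. Levels are given in CPM, the UMIs of the genes relative to all UMIs of a cluster in a brain. Cluster 8 held 22940 and 22600 CPM in the naive brains and 21590 and 22360 CPM in the metastasis brains. The naive and metastasis means were 22770 ± 245 and 21970 ± 547 CPM (SD, n = 2 brains each). The naive values rest on 18 cells each, of which a single cell held 192 of 369 and 224 of 425 class II chain UMIs. Cluster 2 held 21030 and 14070 CPM in the naive brains, from only 10 and 5 cells, and 15840 and 19290 CPM in the metastasis brains. Clusters 8 and 2 did not overlap, but the gap between naive brain 1 in cluster 2 and the lowest brain in cluster 8 was smaller than the spread among cluster 2's own brains.

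Cluster 12 came next and was uneven between brains. Naive brains 1 and 2 had 5848 and 11650 CPM of class II chains there, and metastasis brains 1 and 2 had 4642 and 795 CPM, the last from 26 UMIs in 15 cells. Both naive brains lay above both metastasis brains. Cluster 10, which is led by Saa3 and has no cell type name here, held 3296 and 2499 CPM in naive and 1352 and 1670 CPM in metastasis brains.

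The remaining clusters held at most 599 CPM in any brain. Endothelial-like cluster 6 stood at 440 ± 224 CPM in naive and 243 ± 89.9 CPM in metastasis brains, and mural-like cluster 11, which rests on 3 of 8 mural markers, at 474 ± 36.3 and 84.3 ± 12.6 CPM. Choroid plexus-like clusters 7 and 9 stood at 111 ± 40.8 and 64.9 ± 40.9 CPM in naive brains and at 223 ± 213 and 48.2 ± 8.18 CPM in metastasis brains. In metastasis brains, clusters 0, 1, 3 and 4 lay between 48.2 and 85.6 CPM. Neighbours among these low clusters do not differ beyond the spread of their brains.

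**Figure D1:**
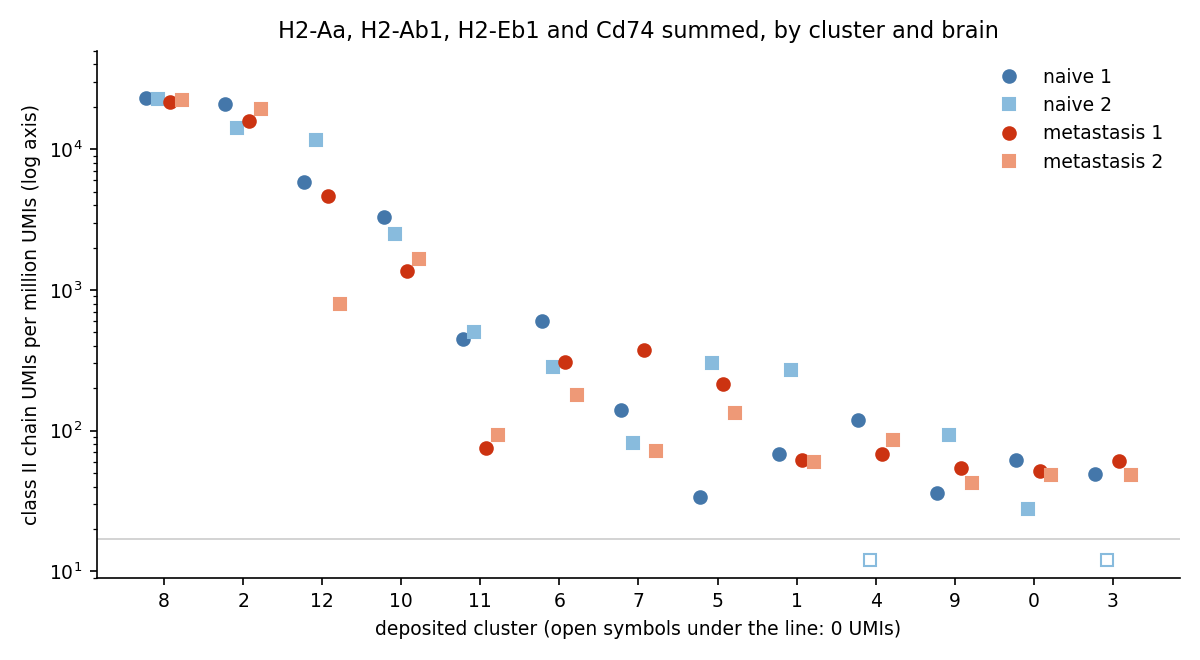
Level of H2-Aa, H2-Ab1, H2-Eb1 and Cd74 summed (CPM, log axis) in each deposited cluster, with 1 point for each of the 4 brains and open symbols for 0 UMIs. Cluster 8 sits between 21590 and 22940 CPM in every brain, while cluster 12 runs from 795 to 11650 CPM.

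Among the chains, H2-Aa, which encodes the I-A alpha chain, reached 3855 and 3350 CPM in cluster 8 of naive brains 1 and 2, and 3012 and 3792 CPM in that of metastasis brains 1 and 2. In cluster 2 the metastasis brains gave 2023 and 2633 CPM, from 3089 and 6060 UMIs, within the range of the naive brains (2981 and 1066 CPM). In cluster 12, H2-Aa was at 621 and 1725 CPM in naive brains and at 849 and 0 CPM in metastasis brains. Naive and metastasis brains overlapped in clusters 2, 8 and 12, and the count of 0 in metastasis brain 2 allows up to 113 CPM (exact 95% Poisson limit, counting error only).

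H2-Ab1, the I-A beta chain, had 3301 and 3964 CPM in cluster 2 of the metastasis brains, against 4673 and 1279 CPM in naive ones. Cluster 8 gave 4850 and 3722 CPM in naive and 4461 and 4743 CPM in metastasis brains. In cluster 12 both naive brains (1261 and 2514 CPM) lay above both metastasis brains (769 and 122 CPM). H2-Eb1, the I-E beta chain, is transcribed in this strain although I-E is not displayed, and it followed the same layout. It stood at 1501 and 1908 CPM in cluster 2 and at 2117 and 2710 CPM in cluster 8 of the metastasis brains. In cluster 12, H2-Eb1 was at 575 and 1057 CPM in naive brains and at 345 and 30.6 CPM in metastasis brains, again without overlap.

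Cd74, the invariant chain, also serves as a cell surface receptor outside antigen presentation. Its level in cluster 2 was 11680 and 10440 CPM in naive and 9011 and 10780 CPM in metastasis brains. Cluster 8 gave 11750 and 13450 CPM in naive and 12000 and 11120 CPM in metastasis brains. In cluster 12 the naive brains stood at 3392 and 6352 CPM and the metastasis brains at 2679 and 642 CPM. Naive and metastasis brains overlapped in clusters 2 and 8 and did not overlap in cluster 12.

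Ciita, the coactivator of the class II promoters, was sparse. It gave 62 and 65 UMIs in cluster 2 of the metastasis brains (40.6 and 28.2 CPM) and 19 UMIs in each metastasis brain in cluster 8 (43.6 and 46.0 CPM). The naive brains had 1 and 0 UMIs in each of these clusters, and cluster 12 had 2 and 1 UMIs in naive and 0 in metastasis brains. Those counts of 0 in cluster 12 allow up to 97.9 and 113 CPM (exact 95% Poisson limit), above the naive levels of 18.5 and 12.2 CPM, so a difference was not detectable at this depth. Clusters 6, 9 and 11 had no Ciita UMI in any brain.

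Of the peptide editors, H2-DMa and H2-DMb1 were present in clusters 2, 8 and 12. H2-DMa stood at 392 and 407 CPM in cluster 2, 395 and 438 CPM in cluster 8 and 398 and 153 CPM in cluster 12 of the metastasis brains. The naive values of cluster 12, 380 and 462 CPM, overlapped these. H2-DMb1 stood at 317 and 348 CPM in cluster 2, 409 and 341 CPM in cluster 8 and 186 and 61.1 CPM in cluster 12 of the metastasis brains. Thus H2-DMa in cluster 12 lay within the range seen in clusters 2 and 8 in 3 of 4 brains.

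H2-DMb2 and H2-Oa had their highest level in cluster 8 in all 4 brains. H2-DMb2 stood there at 119 and 121 CPM in metastasis brains, against 14.4 and 25.6 CPM in cluster 2 of the metastasis brains. Its naive values in cluster 8, 187 and 213 CPM, rest on 3 and 4 UMIs. H2-Oa stood at 57.4 and 62.9 CPM in cluster 8 of the metastasis brains, from 25 and 26 UMIs, and at 15.1 and 13.9 CPM in cluster 2. Its naive values in cluster 8, 249 and 213 CPM, rest on 4 UMIs each. H2-DMb1 and H2-DMb2 are close copies of each other, and how reads common to both were counted is not given in the sources used here.

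**Figure D2:**
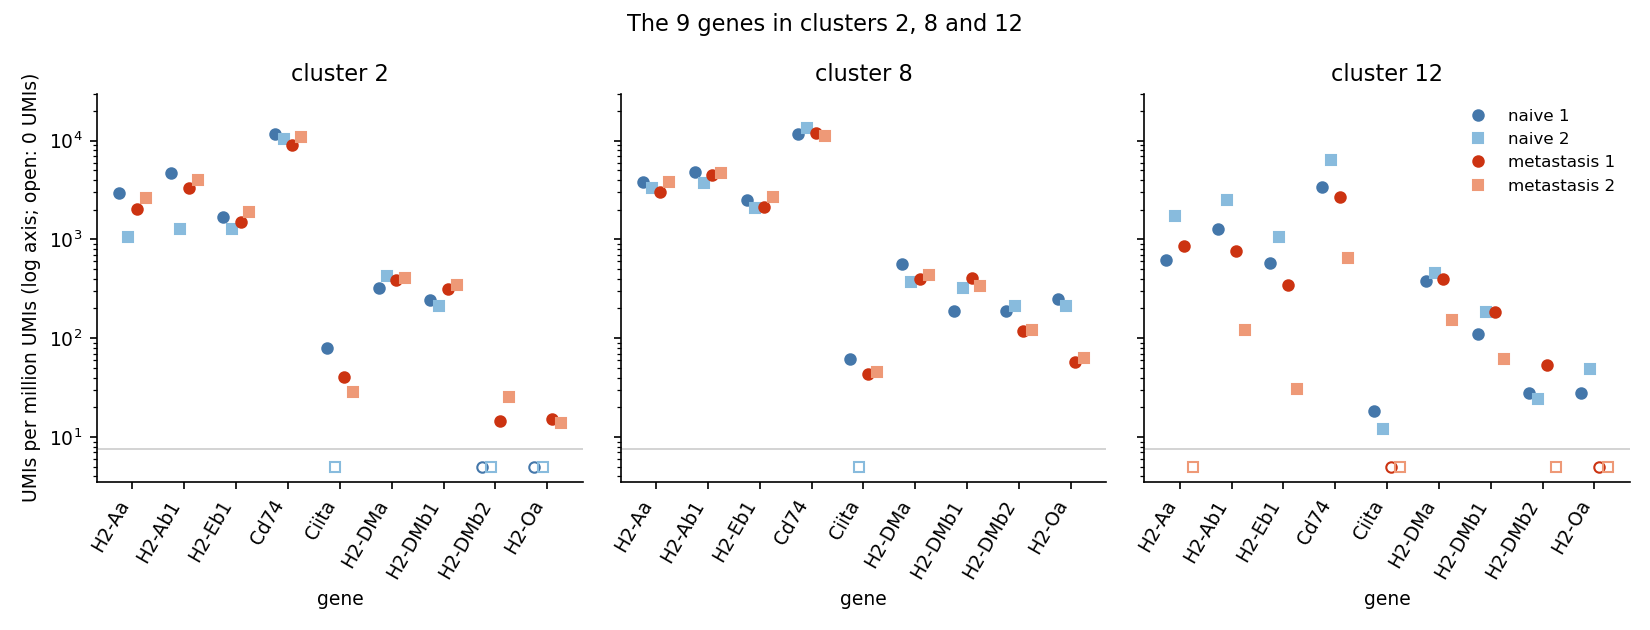
Level of each of the 9 genes (CPM, log axis) in clusters 2, 8 and 12, with 1 point per brain and open symbols for 0 UMIs. In cluster 12 metastasis brain 2 lies lowest for H2-Aa, H2-Ab1, H2-Eb1 and Cd74, and H2-DMb2 and H2-Oa are higher in cluster 8 than in cluster 2.

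The cells that carried the class II transcripts of a suspension differed between naive and metastasis brains. Cluster 12 held 39.2% and 60.3% of all class II chain UMIs of the naive brains but 0.471% and 0.0450% of those of the metastasis brains. Cluster 2 held 16.2% and 4.15% of them in naive brains and 65.1% and 76.9% in metastasis brains. Cluster 8 held 22.9% and 26.8% in naive and 25.3% and 16% in metastasis brains, so that the groups overlapped. For clusters 2 and 12 the groups did not overlap, and an exact two-sided permutation test over brains gave p = 0.33, the smallest that 2 against 2 brains allows; for cluster 8 it gave p = 0.667.

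These parts follow cell numbers as well as levels. Cluster 2 had 10 and 5 cells in the naive and 718 and 1063 cells in the metastasis brains, and cluster 12 had 60 and 33 against 26 and 15 cells. The peptide editors were spread more widely. Clusters 0, 1, 3, 4 and 5 together held 33.8% and 36.1% of the H2-DMa UMIs and 41.7% and 40.01% of the H2-DMb1 UMIs of the metastasis brains, against 6.63% and 4.89% of the class II chain UMIs.

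The low levels in clusters 0, 1, 3 and 4 of the metastasis brains had an uneven make-up. H2-Aa UMIs per 100 Cd74 UMIs came to 27.2 and 25.5 there, against 22.5 and 24.4 in cluster 2. For H2-Eb1 the ratios were 18.2 and 20.4 against 16.7 and 17.7. Ctss, the protease cathepsin S that trims the invariant chain, gave 39.2 and 38.6 against 32.3 and 36.7. H2-Ab1 gave 48.8 and 48.1 against 36.6 and 36.8.

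The ratios of the peptide editors H2-DMa and H2-DMb1 differed far more. H2-DMa gave 34.9 (exact 95% interval 31.1 to 39.1) and 47.9 (43.6 to 52.6) UMIs per 100 Cd74 UMIs in clusters 0, 1, 3 and 4, against 4.35 and 3.77 in cluster 2 and 3.29 and 3.94 in cluster 8. H2-DMb1 gave 42.8 and 47.7, against 3.52 and 3.23 in cluster 2 and 3.41 and 3.07 in cluster 8. H2-Oa gave 1.02 and 2.38 from 12 and 33 UMIs, against 0.167 and 0.129 in cluster 2, and H2-DMb2 gave 0.170 and 0.217 from 2 and 3 UMIs, near its ratio in cluster 2. The intervals cover counting error only. In level, H2-DMa and H2-DMb1 in these 4 clusters stood between 7.74 and 14.8 CPM in the metastasis brains, far under clusters 2, 8 and 12. The part of free RNA in these low counts was not tested.

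**Figure D3:**
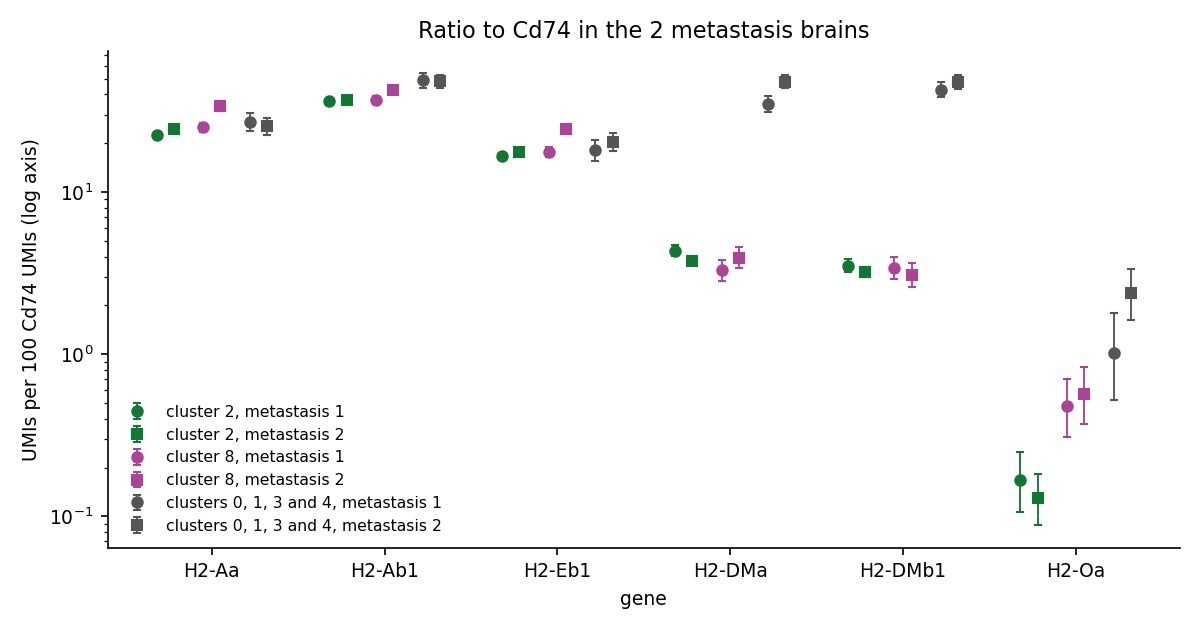
UMIs of 6 genes per 100 Cd74 UMIs (log axis) in clusters 2, 8 and the sum of clusters 0, 1, 3 and 4 of the 2 metastasis brains, with exact 95% intervals for counting error. H2-Aa lies between 22.5 and 34.1 and H2-Eb1 between 16.7 and 24.4 in all 3 sets, highest in cluster 8 of metastasis brain 2, while H2-DMa and H2-DMb1 are at 34.9 to 47.9 in clusters 0, 1, 3 and 4 and at 3.07 to 4.35 in clusters 2 and 8.

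Whether the genes changed between conditions inside a cluster was tested on UMIs summed per brain, with edgeR's quasi-likelihood test over all genes of the cluster and Benjamini-Hochberg adjustment (called at an adjusted p under 0.05). Clusters 6, 7, 9 and 11 had at least 20 cells in each brain. Clusters 1, 8, 10 and 12 entered with a minimum of 10 cells, and their results are less certain for it. Cluster 2, with 5 cells in naive brain 2, was not tested. In all, 34 tests of a member were made over 8 clusters, and 5 passed, each lower in metastasis brains. A sum mixes all cells of a cluster, so a change in the make-up of the cluster and a change within its cells cannot be told apart.

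In cluster 12, 2 of the 6 genes tested were lower in metastasis brains, against 4.04% of all 989 genes tested called lower. H2-Ab1 fell by 2.21 on the log2 scale (SE 0.55, adjusted p = 0.0294, edgeR) and H2-Eb1 fell by 2.20 (SE 0.58, adjusted p = 0.0382). Cd74 had a log2 change of -1.72 (SE 0.52, adjusted p = 0.0572) and H2-Aa of -1.57 (SE 0.72, adjusted p = 0.186). The peptide editors H2-DMa and H2-DMb1 had changes of -0.72 and -0.31, with adjusted p of 0.314 and 0.749. All 6 estimates were negative, where the median over all genes tested was -0.00844.

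The calls in cluster 12 depended on single brains and cells. In DESeq2, H2-Eb1 and Cd74 passed (adjusted p = 0.0375 each) and H2-Ab1 did not (adjusted p = 0.274). Leaving out any 1 brain left a single brain in 1 condition, and which genes passed in edgeR then moved with the brain left out. Leaving out every cell with a UMI of a B cell, T cell, NK cell or dendritic marker, whatever its type, left 25 and 12 naive and 11 and 7 metastasis cells. Only Cd74 then had enough counts to be tested, and its change turned to 0.65 (adjusted p = 0.525). After thinning each cell to 500 UMIs, 0 of 2 genes passed. Cells with mostly neutrophil markers numbered 3 and 7 in the naive brains, and no cell of the metastasis brains was one. Without the cells in which these markers made up at least 1% of UMIs, 3 of 5 genes passed (H2-Ab1, H2-Eb1 and Cd74). In that fit 84 of all 710 genes tested were called lower.

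In cluster 8, 0 of 8 genes tested passed in edgeR and 0 of 8 in DESeq2, against 0.682% of all 3373 genes called in either direction. At an unadjusted p under 0.05 there were 2 of 8, against 493 of all 3373 genes. The 2 were H2-Oa (log2 change -1.64, SE 0.67, adjusted p = 0.310) and H2-Ab1 (0.40, SE 0.17, adjusted p = 0.336). The chains and Cd74 had estimates between 0.16 and 0.40, around the median of 0.31 over all genes tested. Without naive brain 1, H2-Ab1 passed as higher in metastasis brains (0.80, adjusted p = 0.0303), and without naive brain 2, Cd74 did (0.47, adjusted p = 0.0148). Without the filter on low counts, H2-Ab1, H2-Eb1, H2-Aa and Cd74 passed as higher (0.62 to 0.86), where the median over all genes was 1.65. Each naive brain contributed 18 cells, so small changes could not be seen.

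The change of each gene was compared between clusters 12 and 8 in 1 model with the brain as a block. Of 8 genes, 0 passed in edgeR, as did 0% of all 1314 genes tested. An unadjusted p under 0.05 was found for 3 of 8, against 114 of all 1314. H2-Ab1 fell by 2.62 more on the log2 scale in cluster 12 than in cluster 8 (SE 0.66, adjusted p = 0.141), H2-Eb1 by 2.52 (SE 0.74, adjusted p = 0.220) and Cd74 by 1.98 (SE 0.52, adjusted p = 0.149). Leaving out 1 brain leaves a single brain in 1 condition. The difference of H2-Ab1 then ran from -4.67 without metastasis brain 1 to -1.67 without metastasis brain 2. For H2-Eb1 it ran from -5.54 to -1.47 and for Cd74 from -3.335 to -1.11, with the same 2 brains left out. A difference between the clusters was thus not established at this number of brains.

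In mural-like cluster 11, both genes that could be tested were lower in metastasis brains, where 12.3% of all 2620 genes tested were called lower. Cd74 fell by 2.74 (SE 0.51, adjusted p = 3.22e-04, edgeR), from 251 and 231 CPM in naive to 30.1 and 44.3 CPM in metastasis brains. H2-Ab1 fell by 2.33 (SE 0.58, adjusted p = 0.00583), from 108 and 154 to 22.6 and 28.0 CPM. The naive levels rest on 14 and 6 UMIs of Cd74 and on 6 and 4 UMIs of H2-Ab1. Ttr, a choroid plexus transcript, moved the same way in these cells, from 3659 and 3076 CPM to 527 and 624 CPM, and the median cell held 814 and 871 UMIs in naive but 9974 and 10370 UMIs in metastasis brains. The carcinoma marker Krt8 moved the other way there, from 143.5 and 38.45 CPM in naive to 444.5 and 663.9 CPM in metastasis brains. In cluster 0 of the metastasis brains it stood at 431.8 and 656.0 CPM. The part of depth, of free RNA and of carcinoma RNA in the change of Cd74 and H2-Ab1 was not tested. Without either metastasis brain, Cd74 did not pass (adjusted p = 0.0733 and 0.284), and H2-Ab1 did not pass without naive brain 1, without naive brain 2 or in DESeq2 (adjusted p = 0.151, 0.189 and 0.0567).

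In cluster 10, Cd74 was the 1 of 5 genes that passed, and it fell by 1.10 (SE 0.24, adjusted p = 0.0149, edgeR), from 2082 and 1481 CPM to 781 and 974 CPM; 2.06% of all 2666 genes tested were called lower. Ttr in the same cells went from 46190 and 78520 CPM in naive to 1445 and 5430 CPM in metastasis brains, and its part in the Cd74 result was not tested. Without naive brain 1 the change of Cd74 was -0.42 (adjusted p = 0.526).

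In the other clusters no member passed with all 4 brains. In endothelial-like cluster 6, 0 of 3 passed in edgeR and 0 of 2 in DESeq2, against 7.58% of all 4539 genes called. There, 2 of 3 had an unadjusted p under 0.05, against 1145 of all 4539 genes, and estimates ran from -1.39 to -0.54. Choroid plexus-like cluster 7 gave 0 of 3 by both tools, against 31.1% of 5963 genes, and 0 at an unadjusted p under 0.05, against 2668 genes. Cluster 9 gave 0 of 1 in edgeR and none tested in DESeq2, against 4.29% of 3473 genes, and 0 unadjusted, against 578 genes. Cluster 1, with 13 and 11 naive cells, gave 0 of 6 in edgeR and 0 of 5 in DESeq2, against 0.0619% of 9686 genes. At an unadjusted p under 0.05 it gave 1 of 6, against 636 of 9686 genes. Single brains mattered here too. Without naive brain 2, H2-Aa was lower in cluster 6 of the metastasis brains (-2.20, adjusted p = 0.00146, edgeR), and without metastasis brain 2, Cd74 (1.75, adjusted p = 3.84e-04) and H2-Ab1 (1.39, adjusted p = 0.00888) were higher in cluster 7.

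Of 31 genes listed for the wider pathway (transcription factors of the class II promoters, interferon gamma signalling, proteases, costimulation and other class II chains), 27 were in the RNA table. Over the 8 clusters, 74 tests of such a gene were made and 1 passed. Ctss was lower in endothelial-like cluster 6 of metastasis brains (log2 change -1.95, SE 0.49, adjusted p = 0.0376, edgeR), from 92.1 and 99.97 CPM in naive to 34.0 and 14.1 CPM in metastasis brains. Ctss did not pass there without naive brain 1, without metastasis brain 2, in DESeq2, without the filter on low counts, without cells with lymphoid or dendritic UMIs or after thinning. Ttr went from 5858 and 5935 CPM to 3586 and 1211 CPM in the same cells, and its part was not tested. In cluster 12 Ctss stood at 4023 and 3267 CPM in naive and 2812 and 2048 CPM in metastasis brains, a log2 change of -0.73 that did not pass (adjusted p = 0.186).

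Single cells within clusters 2, 8 and 12 differed widely in class II level, given here as class II chain UMIs per 10000 UMIs of the cell. In cluster 2 the median cell stood at 79.4 and 118 in the metastasis brains, and the cell at the 90th percentile at 378 and 433. Cells at 0 made up 13.9% and 11.9%, and the highest cells stood at 1332 and 1311. In cluster 8 the median cell stood at 122 and 72.2 in metastasis brains and at 0 in both naive brains. Its 90th percentile was 886 and 815 in metastasis and 730 and 697 in naive brains. In the naive brains 11 and 10 of the 18 cells had no class II chain UMI, while the highest cell stood at 1221 and 1281, against 1502 and 1597 in metastasis brains.

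In cluster 12 the median cell stood at 6.86 and 7.19 in naive brains and at 10.6 and 7.39 in metastasis brains, so that the medians of both conditions lay close together. Few cells held most of the UMIs, as in cluster 8 of the naive brains, where the top 5 of 18 cells held 366 of 369 and 420 of 425. In naive brain 2 the top cell held 348 of the 959 class II chain UMIs and the top 5 cells held 805. In naive brain 1 the top 5 cells of 60 held 482 of 631 UMIs, and in metastasis brain 1 a single cell held 99 of 175. The median cell of cluster 10 stood at 37.9 and 31.1 in naive and at 9.08 and 19.7 in metastasis brains. It thus lay above the median cell of cluster 12 in every brain except metastasis brain 1.

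Cells with at least 50 class II chain UMIs per 10000, a line drawn after the values were seen, are called class II-rich below. They are a range, not a cell type. In cluster 12 they numbered 9 of 60 and 7 of 33 cells in naive brains and 5 of 26 and 1 of 15 in metastasis brains. They held 91.1%, 98.1%, 84.0% and 19.2% of the class II chain UMIs of their brains in that order. Between 0 and 5 cells per brain lay near the line (25 to 100). In cluster 2 the class II-rich share was 58.5% and 62.2% in metastasis brains, with 156 and 206 cells near the line. In cluster 8 it was 56.0% and 52.1% in metastasis brains, and 4 of 18 and 6 of 18 cells in naive brains.

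**Figure D4:**
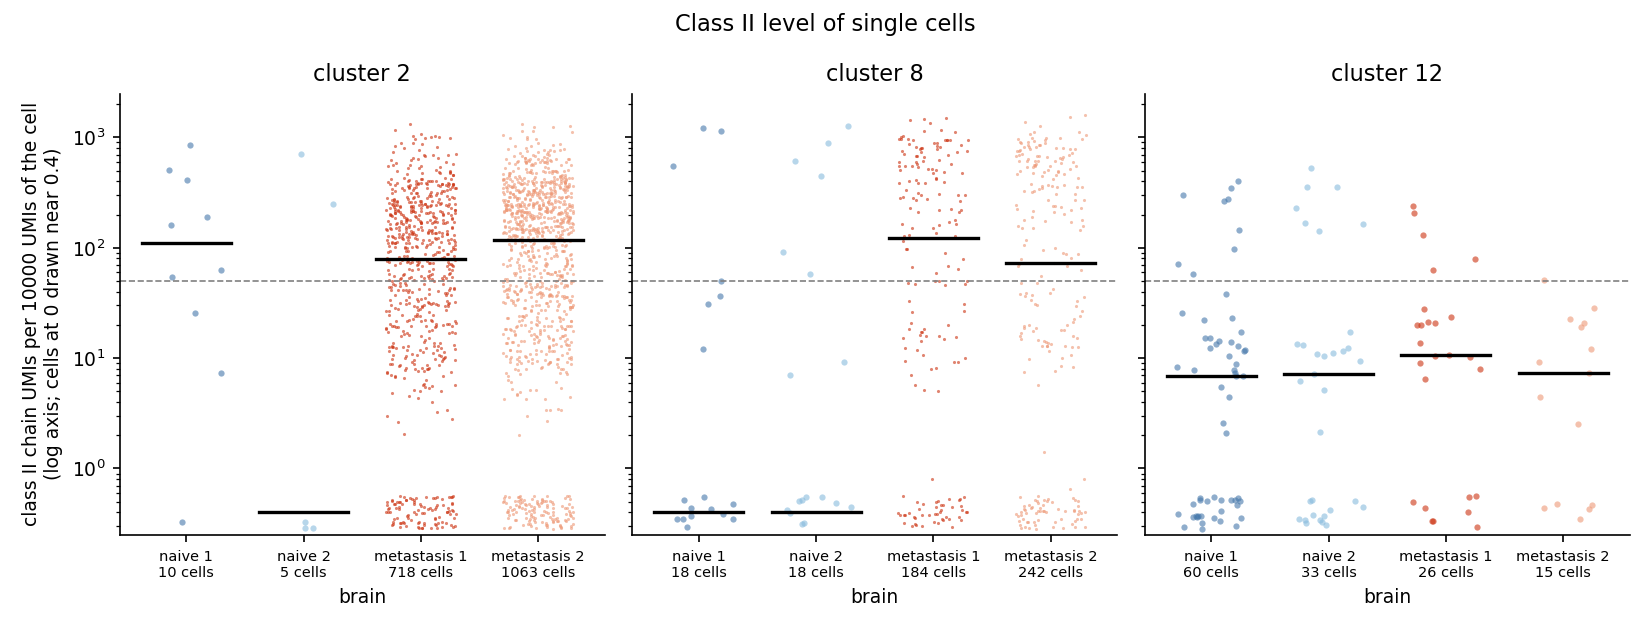
Class II chain UMIs per 10000 UMIs (log axis) of every cell in clusters 2, 8 and 12 by brain, with a black bar at the median, cells at 0 drawn near 0.4 and the line at 50. In cluster 12 the medians lie between 6.86 and 10.6 in all 4 brains, with few cells above the line.

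Depth was taken out by thinning every cell to 500 UMIs. In cluster 2, 77.9% and 80.0% of cells of the metastasis brains then held a class II chain UMI, against 86.1% and 88.2% before thinning. Cluster 8 had 70.7% and 68.6% in metastasis and 33.3% and 38.9% in naive brains. Cluster 12 had 31.7% and 33.3% in naive and 46.2% and 33.3% in metastasis brains. Among cells that should lack class II, cluster 9 gave 2.50% to 4.17% and cluster 7 gave 3.23% to 11.1% over the 4 brains. Mural-like cluster 11 gave more, 20.8% and 25.9% in naive and 14.8% and 8.11% in metastasis brains. Clusters 2, 8 and 12 exceeded all 3 in every brain. Unthinned depth ran from a median of 792.5 to 1548 UMIs in clusters 2, 8 and 12 and from 814 to 10370 UMIs in clusters 7, 9 and 11. Ciita was found in 2.37% and 1.32% of thinned cells of cluster 2 and in 3.26% and 3.72% of those of cluster 8 in metastasis brains.

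In clusters 2 and 8 of the metastasis brains the members were often found in the same cells. After thinning, H2-Aa was present in 66.0% and 73.7% of cluster 2 cells with an H2-Ab1 UMI and in 14.0% and 16.8% of those without one, in metastasis brains 1 and 2. For H2-Eb1 the shares were 58.1% and 65.5% against 9.59% and 11.6%. In cluster 8 of metastasis brain 1, H2-DMb2 was present in 14 of 94 cells with H2-Ab1 and in 1 of 90 without. In metastasis brain 2 the counts were 17 of 116 and 0 of 126. Cluster 12 had few cells for such a count and did not always show it. In its metastasis brain 1, H2-DMa was present in 0 of 5 cells with H2-Ab1 and in 5 of 21 without.

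Marker lists that hold no class II gene split the cells of cluster 8. Cells with mostly T cell markers (29 and 51 cells in metastasis brains) held 381 and 1406 CPM of class II chains, and those with mostly NK cell markers (18 and 22 cells) held 315 and 2894 CPM. Cells with mostly conventional dendritic markers (19 and 27 cells) held 50470 and 48410 CPM, and the 2 such cells of each naive brain held 119100 and 105700 CPM. T cell- and NK cell-marker cells thus lay far below conventional dendritic-marker cells in both metastasis brains. Cells with mostly B cell markers (3 and 7 cells) held 5507 and 23710 CPM there. Cells with mostly monocyte markers (53 and 60 cells) held 35350 and 49780 CPM, those with mostly plasmacytoid dendritic markers (19 and 23 cells) 9137 and 8765 CPM, and the 42 and 52 cells with no list ahead 37880 and 41250 CPM. The values depend on the lists. After markers that clusters 0, 1, 3 and 4 also expressed were dropped and a border macrophage list was added, a choice made after seeing the data, T cell-marker cells held 1217 and 815 CPM, conventional dendritic-marker cells 46430 and 23680 CPM and monocyte-marker cells 20280 and 36630 CPM. Only 2 plasmacytoid-marker cells were then left in each metastasis brain, and the 4 and 9 B cell-marker cells held 37470 and 13650 CPM.

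In cluster 2, cells with mostly monocyte markers (607 and 828 cells in metastasis brains) held 16320 and 20350 CPM, and the 3 and 4 cells with mostly conventional dendritic markers held 32510 and 33540 CPM. With the changed lists, cells with mostly border macrophage markers (41 and 102 cells) held 11910 and 18390 CPM. In cluster 12, cells with mostly microglia markers held 626 of the 631 class II chain UMIs of naive brain 1 and 702 of the 959 of naive brain 2. Cells with mostly neutrophil markers held 0 and 257 UMIs there.

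Surface antibody tags, a readout that the choice of genes did not use, differed between class II-rich and other cells. In cluster 12 of the naive brains, CD45, which microglia are known to carry at a lower level than other leukocytes, had a median of 190 and 195 tags per cell in the class II-rich cells and of 12 and 17 in the others. CD11b, an integrin of myeloid cells, had medians of 421 and 288 against 51 and 39. The rich cells were also deeper, with a median of 2084 and 6020 UMIs against 979 and 1012. Without the cells rich in neutrophil markers, the CD45 medians of naive brain 2 were 94 in 5 rich cells and 12 in 21 others, at 2568 and 909 UMIs.

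Microglia markers were present in these rich cells too. Every class II-rich cell of cluster 12 held a microglia marker UMI in each brain, with a median of 75.6 and 98.8 marker UMIs per 10000 in the naive brains. The other cells stood at 137 and 141. In metastasis brain 1 the 5 rich cells had a median CD45 of 140 tags against 72 in the 21 others, and 88.1 against 70.1 microglia marker UMIs per 10000. Choroid plexus genes made up 48460 CPM of those 5 cells and 2241 CPM of the others, and their part was not tested. In metastasis brain 2 the order was the other way, with 9 CD45 tags in the single rich cell and a median of 68.5 in the 14 others.

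**Figure D5:**
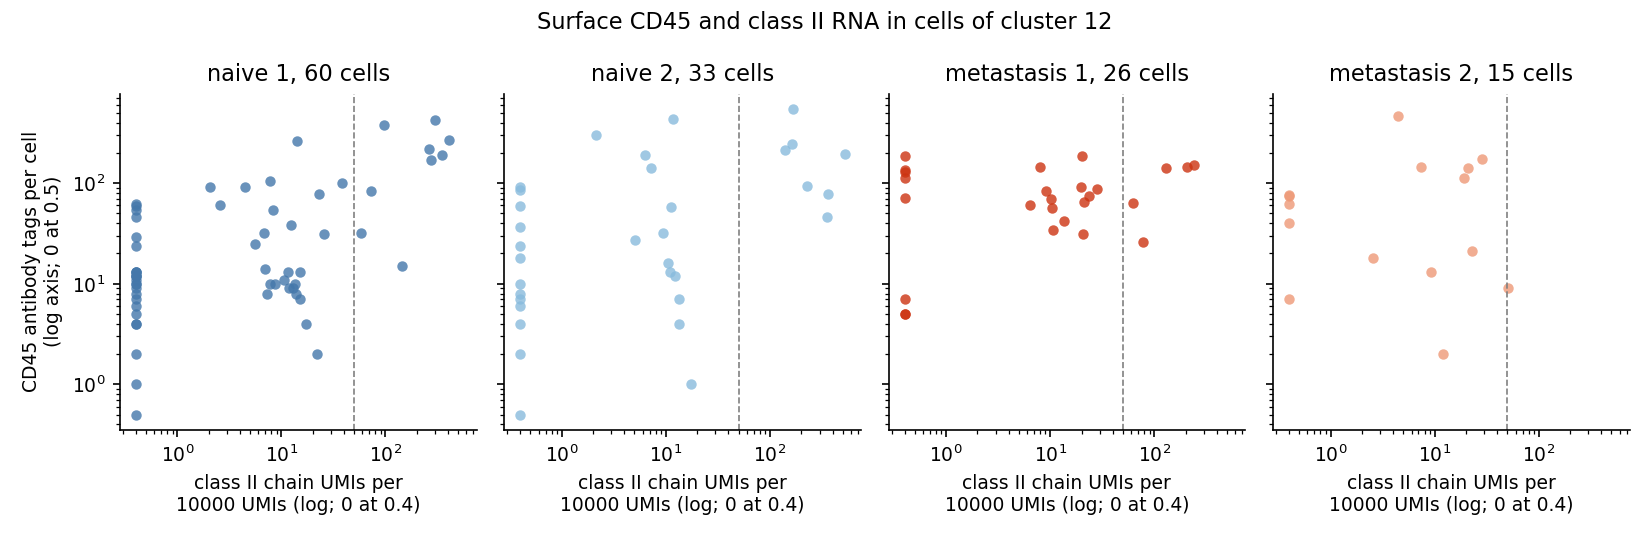
CD45 antibody tags (log axis, 0 drawn at 0.5) against class II chain UMIs per 10000 UMIs (log axis, 0 drawn at 0.4) for every cell of cluster 12, with 1 panel per brain and a dashed line at 50. Right of the line, the class II-rich cells of the naive brains have medians of 190 and 195 tags, against 12 and 17 left of it.

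CD86, a costimulatory ligand that antigen-presenting cells show beside class II, had a median of 9 and 11 tags in class II-rich cells of cluster 2 and of 4 and 4 in the others, in metastasis brains 1 and 2. The rich cells held 1794 and 1735 UMIs in the median, against 1226 and 1072. The difference was not particular to CD86. CD45 had medians of 157.5 and 165 tags in these rich cells against 88.5 and 76 in the others. For CD11b the medians were 187.5 and 218 against 110.5 and 106. Spearman's rho of CD86 tags with the thinned class II count was 0.25 over 718 cells and 0.23 over 1063, cells of 1 suspension each that share its staining. For CD45 tags the rho was 0.216 and 0.244, and for CD11b tags 0.149 and 0.211. In cluster 8, CD86 had medians of 3 against 1 in both metastasis brains, and CD11b of 13 and 16.5 against 4 and 3. CD45 was lower in the rich cells of cluster 8 in the metastasis brains, with medians of 51 and 54.5 against 56 and 64. In naive brain 1 the 4 rich cells had 64.5 against 50.5 in the others, and in naive brain 2 the 6 rich cells had 45 against 54. CD3e, part of the T cell receptor complex, had a rho of -0.34 and -0.20 with class II in cluster 8 of the metastasis brains.

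Over the 37 sums of a cluster and a brain with at least 20 cells, the genes whose level was most like the class II chains were Tyrobp, Fcer1g, Cd53, Cd52, Ms4a6b, Cybb, Laptm5 and Lsp1, among 10595 genes compared. Their Pearson correlations on the log2(CPM + 10) scale ran from 0.93 to 0.96, and are descriptions across sums that share brains. Of the members, Cd74, H2-Ab1, H2-Aa and H2-Eb1 had 0.97 to 1.00 with the sum they belong to, H2-DMa 0.92, H2-DMb1 0.91 and H2-DMb2 0.82.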

How the data were processed

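RNA UMI counts, antibody tag counts and a per-cell table with hashing label and cluster were used as the authors deposited them. The submitters' processing notes name Cell Ranger 3.0.2, Seurat 3.0.1 and mm10. Raw counts of 12421 cells, at least 500 UMIs each, were summed per cluster and brain without a further cell filter or doublet caller. Every cell of the deposited table carries 1 hashing label. Each brain was stained with its own hashing antibody, and brains are the replicates (2 against 2). The members, gene lists and tests were chosen with earlier results of these data known. edgeR 4.0.16 (TMM, filterByExpr, quasi-likelihood test; tested on simulated data) was used with at least 20 cells per brain, or 10 as stated, and DESeq2 1.42.0 as an alternative. Named are all 9 members, up to 4 pathway genes per cluster past the threshold, and the 8 genes most like the members. Other alternatives were the scaling, the filter, each brain left out, neutrophil-rich cells left out, any cell with a lymphoid or dendritic marker UMI left out, and thinning. Intervals are exact at 95% and cover counting error only. Promoter sequences come from RefSeq (GRCm38.p6).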

Additional observations from a re-analysis of the deposited data

How the results depend on the processing

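No paired analysis was possible because the hashing antibodies of the naive and metastasis brains share no number. With 2 brains per condition and as few as 10 cells per brain, calls were fragile. Of 301 estimates of single members under alternatives, 245 kept direction and side of the threshold, 23 newly passed, 16 no longer passed and 17 changed sign. Members that passed ranged, with 1 brain left out, from 0 to 1 in clusters 6, 8, 10 and 11, from 0 to 2 in cluster 7, from 0 to 5 in cluster 12 and from 0 to 4 for cluster 12 against cluster 8, and stayed at 0 in clusters 1 and 9. Without the filter on low counts, 1 passed in cluster 7, 4 in cluster 8, 0 in cluster 10, 1 in cluster 11 and 4 in cluster 12. With DESeq2, 1 passed in cluster 11. Thinning to 500 UMIs left 0 in clusters 10, 11 and 12, with 1, 0 and 2 genes tested, and leaving out cells with lymphoid or dendritic UMIs left 0 in clusters 10 and 12 and could not be fitted for clusters 8 and 11. Main counts were 1 in cluster 10, 2 in clusters 11 and 12 and 0 elsewhere.

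With 1 brain left out, these changes ranged across 0: Cd74 from -1.06 to 0.42 in cluster 1, -1.003 to 0.23 in cluster 6, -0.91 to 1.75 in cluster 7, -0.18 to 0.47 in cluster 8 and -1.03 to 0.28 in cluster 9. In cluster 1, H2-Ab1 ran from -2.16 to 0.32, H2-DMb1 from -0.77 to 0.12 and H2-Eb1 from -0.80 to 8.46. H2-Aa ran from -0.30 to 1.72 in cluster 7 and from -0.13 to 0.51 in cluster 8, and H2-DMa in cluster 8 from -0.10 to 0.65. H2-DMb1 in cluster 12 ran from -1.42 to 0.26, and the difference of H2-DMb2 between clusters 12 and 8 from -4.35 to 1.35. Without cells with lymphoid or dendritic UMIs, Cd74 turned in cluster 1 (0.34) and cluster 12 (0.65), and without the filter H2-DMb2 turned in cluster 8 (0.0058). The cause was not tested. No change of turned sign passed the threshold.

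All genes called over the alternatives ran from 0 to 91 in cluster 1 (main 6), 0 to 397 in cluster 6 (344), 0 to 2332 in cluster 7 (1856), 3 to 205 in cluster 8 (23), 0 to 169 in cluster 9 (149), 1 to 160 in cluster 10 (65), 0 to 467 in cluster 11 (422) and 0 to 216 in cluster 12 (58). The share of class II chain UMIs held by a cluster differed between metastasis and naive brains by 54.8 to 66.8 percentage points in cluster 2, -60.1 to -38.9 in cluster 12 and -8.83 to 0.50 in cluster 8 with 1 brain left out. The class II-rich share depends on the line, which was drawn after seeing the data. In metastasis brains it was 70.1% in cluster 2 and 59.6% in cluster 8 with the line at 25, and 49.5% and 48.6% with the line at 100; in naive brains of cluster 8 it was 19.4% at 100. Thinned to 1000 UMIs, 88.1% of cells of cluster 2 and 83.2% of cluster 8 in metastasis brains held a class II chain UMI, as did 53.3% and 60.1% of cluster 12 in naive and metastasis brains. Without neutrophil-rich cells, the naive mean of cluster 8 was 22250 CPM.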
